A study of Sus scrofa with 4 samples.

Results

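MMP3, MMP7 and TIMP3 are 3 genes of extracellular proteolysis, and they were taken here from the 30282 gene identifiers of 4 single-cell RNA sequencing libraries of pig pancreas. Every feature with 1 of these symbols was summed, extensions of the 3' end included, so each gene had 1 count per cell. The genes were chosen because their counts in these libraries were already known to differ, so their own levels are given as a description and without a test.

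Matrix metalloproteinases are zinc enzymes that are secreted or membrane bound, are made as inactive precursors and cut proteins of the extracellular matrix once the propeptide is removed. MMP3 (stromelysin-1) cuts proteoglycans, laminin and other matrix proteins and can activate other precursors of the family. MMP7 (matrilysin) is a short member without the hemopexin domain and is known from epithelia, where it also cuts cell surface proteins. TIMP3 is an inhibitor that stays bound to the matrix, and it blocks not only matrix metalloproteinases but also ADAM17 and proteases of the ADAMTS family.

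Porcine pancreatic ductal organoids (PPDO) gave 2 of the libraries and primary pancreas gave the other 2. The paper calls the PPDO libraries a late postnatal and an adult line. In its methods they are named by ages that both lie within its late postnatal range. The lines were sampled at different passages, but the sample titles do not tell them apart. By the paper's account most cells of these cultures had by then moved to a less mature duct state. Organoids of early passage were not among these libraries. The organoids grew in a basement membrane extract (Cultrex) with WNT3a, R-spondin and noggin (later as conditioned medium), EGF, FGF10, the TGF-beta receptor inhibitor A83-01, prostaglandin E2, gastrin, the ROCK inhibitor Y-27632, nicotinamide, N-acetylcysteine, and the N2 and B27 supplements. The primary libraries came from 2 late postnatal German landrace pigs, a wild-type and an INS-eGFP animal whose transgene is driven by the insulin promoter, processed on different days. In primary pancreas 1 the ducts were picked by hand, and in primary pancreas 2 cells that bound the duct lectin DBA, eGFP-positive cells and whole suspension were sorted and pooled. Live cells were sorted in all 4 libraries. Culture with its passages, animal and sorting therefore differ together between the groups and cannot be told apart. Age differed between libraries too, with that of the primary pigs between those named for the PPDO lines, and its part was not tested.

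After filtering, 8885 cells of PPDO 1, 7337 of PPDO 2, 5676 of primary pancreas 1 and 4274 of primary pancreas 2 were kept. The median count per kept cell was 34176, 34459, 10176.5 and 23651.5 UMIs (unique molecular identifiers, 1 per captured molecule). Between 10 and 23 cell barcodes were shared by any pair of libraries. The 10 measured ductal markers summed to 1277 and 1161 CPM (counts per 1000000 UMIs of the group) in PPDO, with none at 0 over all cells, and to 30088 and 33794 CPM in primary ductal-like cells. The PPDO sum came mostly from SLC4A4 (418 and 327 CPM), KRT7 (389 and 384), BMPR1A (237 and 240) and ANXA4 (127 and 132). Low in PPDO were CFTR (1.04 and 0.636 CPM), SCTR (1.14 and 0.793), PKHD1 (0.585 and 0.549) and SOX9 (3.30 and 1.44). In primary pancreas SLC4A4 reached 25899 CPM in its highest class sum. Ductal-like cells fell into other clusters in each primary library: the 2167 cells of primary pancreas 1 were mostly in clusters 0, 5 and 8, and the 1189 cells of primary pancreas 2 mostly in clusters 1 and 23. Primary cells were clustered without adjustment for library, so cluster and library cannot be told apart between these sets.

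In the RefSeq annotation of the pig genome Sscrofa11.1, MMP3 lies on chromosome 9 from 33446969 to 33453995 and MMP7 on the same chromosome from 33214590 to 33225080. They belong to a run of matrix metalloproteinase genes that holds MMP7, MMP20, MMP27, MMP8, MMP1, MMP3, MMP12 and MMP13 in this order. RefSeq lists MMP10 as a synonym of pig MMP3, so the 2 stromelysin names cannot be told apart for this locus. TIMP3 lies on chromosome 5 from 12185816 to 12242599, within the span of SYN3 (12017741 to 12501995). SYN3 had 6.20 and 5.92 CPM in PPDO. Extensions of the 3' end carried 0.108% and 0.101% of the MMP3 UMIs of the PPDO libraries. They carried 0.569% and 1.48% of the MMP7 UMIs and 0.1295% and 0.0685% of the TIMP3 UMIs. In primary pancreas, where MMP3 had 23 and 33 UMIs over all barcodes, 10 in each library were on the extension.

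MMP3 was high in PPDO and close to absent from primary pancreas. It reached 1031 CPM in PPDO 1 and 883 CPM in PPDO 2 (957 ± 105, SD, n = 2). Primary ductal-like cells had 0.116 CPM in primary pancreas 1 and 0.236 CPM in primary pancreas 2. The PPDO libraries were far above both primary libraries. The primary values rest on 5 and 6 UMIs, and the ratio of the pooled CPM was 6002, with an exact Poisson 95% interval of 3354 to 12022 that covers counting error only. The log2 ratio of the mean CPM was 12.41, and it was 13.01 without primary pancreas 2 and 13.51 without 3' extensions. A UMI of MMP3 was found in 84.3% of PPDO 1 cells and 85.6% of PPDO 2 cells. When each cell was thinned to 3000 UMIs, the shares were 57.8% and 57.3%. In primary ductal-like cells at that depth, the shares were 0 of 2054 cells in primary pancreas 1 (exact 95% interval up to 0.179% of cells with a UMI) and 0.0841% in primary pancreas 2.

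The MMP3 counts differed widely between single organoid cells. The median PPDO cell held 11 MMP3 UMIs in both libraries, the upper quartiles were 43 and 39, and the highest cells held 670 and 636. The tenth of cells with the most MMP3 carried 50.7% and 49.5% of its UMIs, while 15.7% and 14.4% of cells had none.

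In whole primary pancreas MMP3 had 22 UMIs in primary pancreas 1 and 23 in primary pancreas 2, or 0.289 and 0.194 CPM. Of the 22, 11 were in 8 of the 345 schwann-like cells (3.62 CPM, 1.81 to 6.48). The endocrine-like cells held 3 UMIs in primary pancreas 1 and 16 in primary pancreas 2. No MMP3 UMI was found in acinar-like, mural-like or fibroblast-like cells of either library. Neighbouring classes with 2 libraries overlapped in all 5 pairs of the order by MMP3 level.

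MMP7 had the opposite pattern between the groups. It was at 6.69 CPM in PPDO 1 and 1.77 CPM in PPDO 2 (4.23 ± 3.48, SD, n = 2). In primary ductal-like cells it was at 797 and 794 CPM (796 ± 2.03, SD, n = 2). The mean was 188-fold higher in the primary ductal-like cells. The log2 ratio of the means, PPDO over ductal-like cells, was -7.56, and it was -8.81 without PPDO 1 and -6.89 without PPDO 2. At 3000 UMIs per cell, 69.9% and 75.2% of ductal-like cells had an MMP7 UMI, against 0.533% and 0.164% of PPDO cells. Lymphoid-like cells, which should lack MMP7, had a UMI in 1.26% of 239 cells and 1.35% of 74 cells at that depth, from median counts of 5759 and 5485.5 UMIs before thinning. Those cells came from libraries rich in MMP7-positive ductal-like cells, and a background share for the PPDO libraries was not measured.

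Among the named primary classes, ductal-like cells had the highest MMP7 level. Unnamed cells had 3584 and 198 CPM. Fibroblast-like cells of primary pancreas 1 had 45.2 CPM, and myeloid-like cells had 36.01 and 4.11 CPM. Schwann-like cells of primary pancreas 1 had 17.1 CPM, and acinar-like cells had 22.6 and 2.38 CPM. Mural-like, endothelial-like, lymphoid-like and endocrine-like cells lay between 2.37 and 7.49 CPM. The ductal marker list summed to 2464 CPM in fibroblast-like, 1255 CPM in myeloid-like, 1249.9 CPM in schwann-like, 737 CPM in mural-like, 507 CPM in acinar-like, 407 CPM in endothelial-like, 317 CPM in endocrine-like and 174 CPM in lymphoid-like cells of primary pancreas 1. Its order and that of MMP7 differed in part, since acinar-like cells had more MMP7 than schwann-like and mural-like cells at a lower sum. It came to between 176 and 613 CPM in the 6 named non-ductal classes of primary pancreas 2 with 20 or more cells. The part of free RNA or mixed cells in the non-ductal MMP7 values was not tested.

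Within the ductal-like class, MMP7 differed between clusters. Cluster 0 (OSGIN1, AADAC) had 860 CPM and cluster 8 (SLC47A2, FTCD) had 778 CPM in primary pancreas 1. Cluster 1 (TMEM238, FZD5) had 799 CPM in primary pancreas 2. Cluster 5 (TCN1, LGR5) had 258 CPM in primary pancreas 1, and cluster 23 had 157 CPM in primary pancreas 2. The 17 cells of cluster 5 in primary pancreas 2, which were too few for a stable level, had 1838 CPM. The low values came with shallow cells, of median counts of 5415.5 and 11326 UMIs against 15565 to 22100 UMIs in the clusters with high values, and the part of depth was not tested. An unnamed cluster of 145 cells of primary pancreas 1, led by TM4SF20, had 4541 CPM, but its median cell held only 1196 UMIs. Its best marker list was the ductal one, with 5 of 10 markers passing, and it was left unnamed for its low depth. Without thinning, 86.7% and 95.6% of ductal-like cells had an MMP7 UMI, with medians of 9 and 12 UMIs per cell.

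TIMP3 was present in both groups. It was at 84.0 CPM in PPDO 1 and 81.9 CPM in PPDO 2 (83.0 ± 1.47, SD, n = 2). In ductal-like cells it was at 471 CPM in primary pancreas 1 and 136 CPM in primary pancreas 2 (304 ± 237, SD, n = 2). The primary libraries differed more from each other than primary pancreas 2 differed from PPDO. The log2 ratio of the means, PPDO over ductal-like cells, was -1.87, and it was -0.71 without primary pancreas 1 and -2.50 without primary pancreas 2. No normalisation beyond the total UMIs was applied to these ratios. At 3000 UMIs per cell TIMP3 was found in 18.4% and 16.5% of PPDO cells and in 55.2% and 31.0% of ductal-like cells. In lymphoid-like cells of primary pancreas the share was 1.67% in primary pancreas 1 and 0 of 74 cells in primary pancreas 2, where the exact 95% interval reaches 4.86% of cells with a UMI.

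Ductal-like TIMP3 differed between clusters as well. In primary pancreas 1 cluster 0 had 564 CPM, cluster 5 had 341 CPM and cluster 8 had 137 CPM. In primary pancreas 2 cluster 1 had 133 CPM and cluster 23 had 117 CPM, close to cluster 8. Clusters 0 and 8 both held cells of primary pancreas 1 only.

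The highest TIMP3 levels of the named primary classes were in the stroma. Mural-like cells had 1308 and 1333 CPM, with TIMP3 found in 91.9% and 92.7% of cells at 3000 UMIs. Endothelial-like cells had 1248 and 1148 CPM. Schwann-like cells of primary pancreas 1 had 1264 CPM and fibroblast-like cells 762 CPM, and primary pancreas 2 held 1 and 7 cells of these classes. Ductal-like cells came next, followed by endocrine-like cells with 79.8 and 13.9 CPM and acinar-like cells with 71.5 and 13.5 CPM. Myeloid-like cells had 34.3 CPM in primary pancreas 1 and no TIMP3 UMI in 65 cells of primary pancreas 2. Lymphoid-like cells had 9.05 CPM in primary pancreas 1 and no UMI in primary pancreas 2. The mural-like and endothelial-like ranges did not overlap with that of ductal-like cells, and the ductal-like range did not overlap with that of endocrine-like cells. From endocrine-like cells down, each range overlapped with the next.

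TIMP3 also differed inside the stromal classes. Endothelial-like cluster 18, led by SEMA3G and TMEM100, had 1902 and 2233 CPM in the primary libraries. The other endothelial-like clusters with 20 or more cells of a library had 891 to 1250 CPM. Of the 2 schwann-like clusters of primary pancreas 1, cluster 17 (IL1RAPL2, APOE) had 1805 CPM and cluster 19 had 461 CPM. Over 16 sums of a class in a library, genes whose log2(CPM + 1) ran closely with TIMP3 included UACA (Pearson r = 0.95), TGFB2 (0.94), RHOJ (0.94) and ISG12(A) (0.94). These sums share libraries, so the values are a description.

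**Figure D1:**
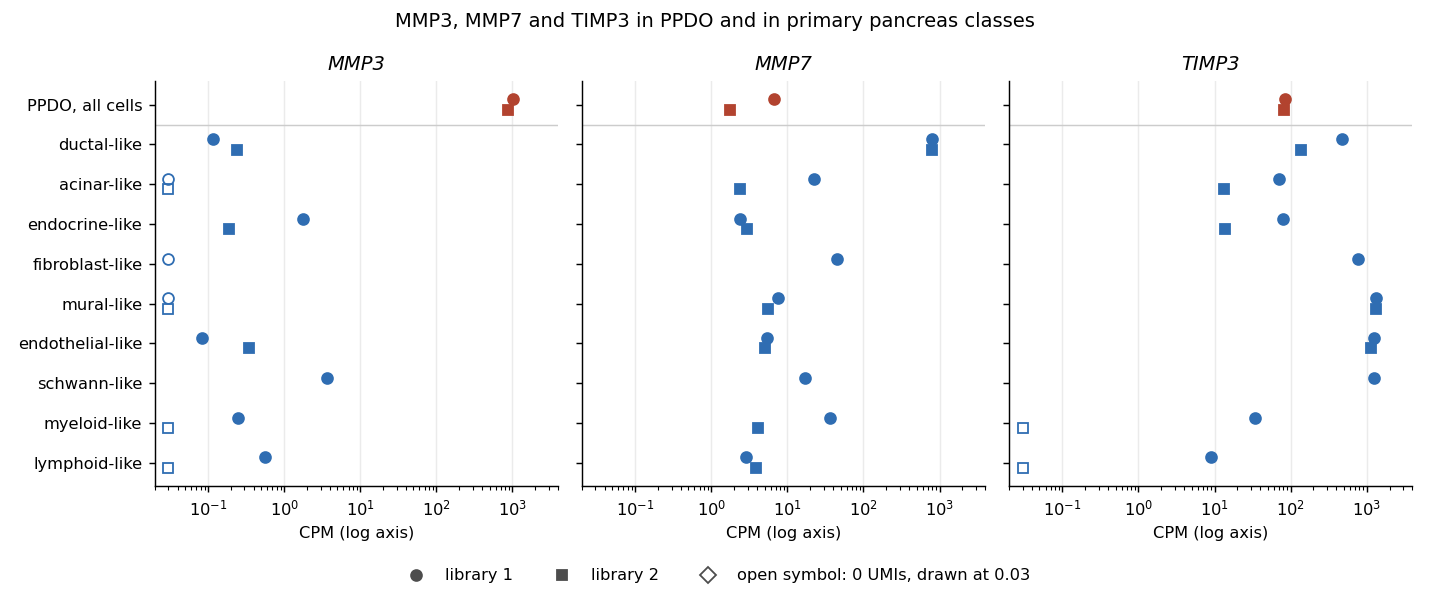
CPM of MMP3, MMP7 and TIMP3 (log axis) in all PPDO cells and in each named primary pancreas class with 20 or more cells, with circles for library 1 and squares for library 2 of each group and open symbols for 0 UMIs. MMP3 is at 883 to 1031 CPM in PPDO and under 4 CPM in every primary class, MMP7 is near 796 CPM in ductal-like cells and under 7 CPM in PPDO, and TIMP3 is highest in mural-like cells.

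The TIMP3 counts of PPDO were set beside the markers of stromal cells. All 8 fibroblast markers were under 1 CPM in both PPDO libraries and summed to 1.18 and 1.24 CPM, against 1151 and 35.9 CPM in all cells of the primary libraries. Of the 8 mural markers, RGS5, ACTA2 and PDGFRB were under 1 CPM, and the list summed to 86.9 and 90.6 CPM, of which NOTCH3 made 74.8 and 79.3 CPM. Of the 12 endothelial markers 9 were under 1 CPM, CDH5 and KDR at no more than 0.0953 CPM, and the list summed to 74.3 and 64.1 CPM. EGFL7 made 50.0 and 44.2 CPM of this sum, PECAM1 16.2 and 10.9 CPM and FLT1 5.08 and 6.55 CPM. The list of 8 schwann markers summed to 3645 and 3507 CPM through ERBB3 (3636 and 3499 CPM), a receptor that epithelia also carry. SOX10 had 6.80 and 6.22 CPM, while CDH19 was under 1 CPM and FOXD3 was at 0. In the cluster with the most TIMP3 the fibroblast list summed to 1.28 and 1.09 CPM. The mural, endothelial and schwann lists are not reported for that cluster, and the part of stromal cells in its TIMP3 was not tested.

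Within PPDO, 10 clusters were found without the 3 genes among the clustering genes, and the levels below describe them without a test. MMP3 was highest in cluster 2, led by GPNMB and BBOX1, with 2045 CPM in PPDO 1 and 1645 in PPDO 2. Cluster 3, led by NDUFA4L2 and SERPINE2, had 2029 and 1466 CPM. Cluster 2 held 17.4% and 12.9% of cells and carried 44.0% and 29.8% of the MMP3 UMIs. Cluster 4, led by PLXDC2 and PLA2G4E and with the epidermal genes SPINK5 and KLK7 among its leading 10, had 1394 and 931 CPM. The cycling clusters 5 (CENPF, TOP2A) and 6 (DTL, ZNF367) had 787 and 822 CPM and 667 and 730 CPM.

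The lower part of the MMP3 order was less distinct. Cluster 7 (SPP1, CFD) had 538 and 603 CPM, and cluster 0 (MOXD1, CDH13), the most populous, had 495 and 506 CPM. Cluster 1 (ADM, EGLN1) had 388 and 537 CPM, cluster 9 (S100A8, S100A12) had 183 and 512 CPM, and cluster 8 (CCL2, EVA1C) had 245 and 276 CPM. Ranges over the 2 libraries overlapped for clusters 2 and 3 and for each neighbouring pair from cluster 0 down to cluster 8, and the other 5 neighbouring pairs were apart. Even the lowest clusters lay far above primary ductal-like cells, and the part of free MMP3 RNA in them was not tested.

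TIMP3 was concentrated in a different cluster. Cluster 1, led by TIMP3 itself and by ADM, EGLN1, VEGFA and NDRG1, genes known to respond to low oxygen, had 371 CPM in PPDO 1 and 312 CPM in PPDO 2. It held 22.8% and 20.6% of cells and carried 68.8% and 62.3% of the TIMP3 UMIs. At 3000 UMIs per cell, TIMP3 was found in 52.7% and 48.3% of its cells. Cluster 7 followed with 60.2 and 116 CPM and cluster 4 with 72.5 and 35.4 CPM. The cycling clusters and clusters 0, 3 and 8 had 19.7 to 45.9 CPM. Cluster 2, with the most MMP3, had only 14.5 and 17.0 CPM, and no TIMP3 UMI was found in the 25 and 63 cells of cluster 9. Cluster 1 was apart from cluster 7, while from cluster 7 to cluster 3 all neighbouring ranges overlapped.

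MMP7 came from few organoid cells. It was found in 155 cells of PPDO 1 and 57 cells of PPDO 2. In PPDO 1, 34 cells with 10 or more MMP7 UMIs carried 87.0% of its UMIs, and in PPDO 2 this was 7 cells with 79.7%. Cells with any MMP7 UMI were spread more widely, with 17 and 12 in cluster 0 and 22 and 11 in cluster 2. Of the 34 cells 28 were in cluster 7 and 4 in cluster 8, and of the 7 cells 5 were in cluster 7, 1 in cluster 8 and 1, with 51 UMIs, in cluster 2. Single cells with 286 and 124 UMIs held 14.2% and 26.7% of all MMP7 UMIs of their library.

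Cluster 7 had 169 and 44.3 CPM of MMP7, and 28.9% and 10.1% of its cells had a UMI. At 3000 UMIs the shares were 13.9% and 3.14%. Its leading genes were SPP1, CFD, TCN1, S100A1 and WFDC2, and it had the highest summed level of ductal markers among the PPDO clusters, 3067 and 3153 CPM against 258 to 1415 CPM in the others. Cluster 8, led by CCL2, EVA1C, HPS5, ICAM1 and CXCL2, had 69.3 and 49.8 CPM. These levels rest largely on single cells: 1 cell of PPDO 1 held 216 of the cluster's 372 MMP7 UMIs, and 1 cell of PPDO 2 held 124 of 136. At 3000 UMIs MMP7 was found in 5.65% and 1.54% of the cells of cluster 8, the latter being 1 cell. In the remaining 8 clusters MMP7 was at most 2.24 CPM. Clusters 7 and 8 together held 4.24% and 3.05% of cells and 94.0% and 77.6% of the MMP7 UMIs. MMP13, from the same run of genes on chromosome 9, was also highest in cluster 7, with 62.5 and 63.9 CPM against at most 6.91 CPM elsewhere.

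**Figure D2:**
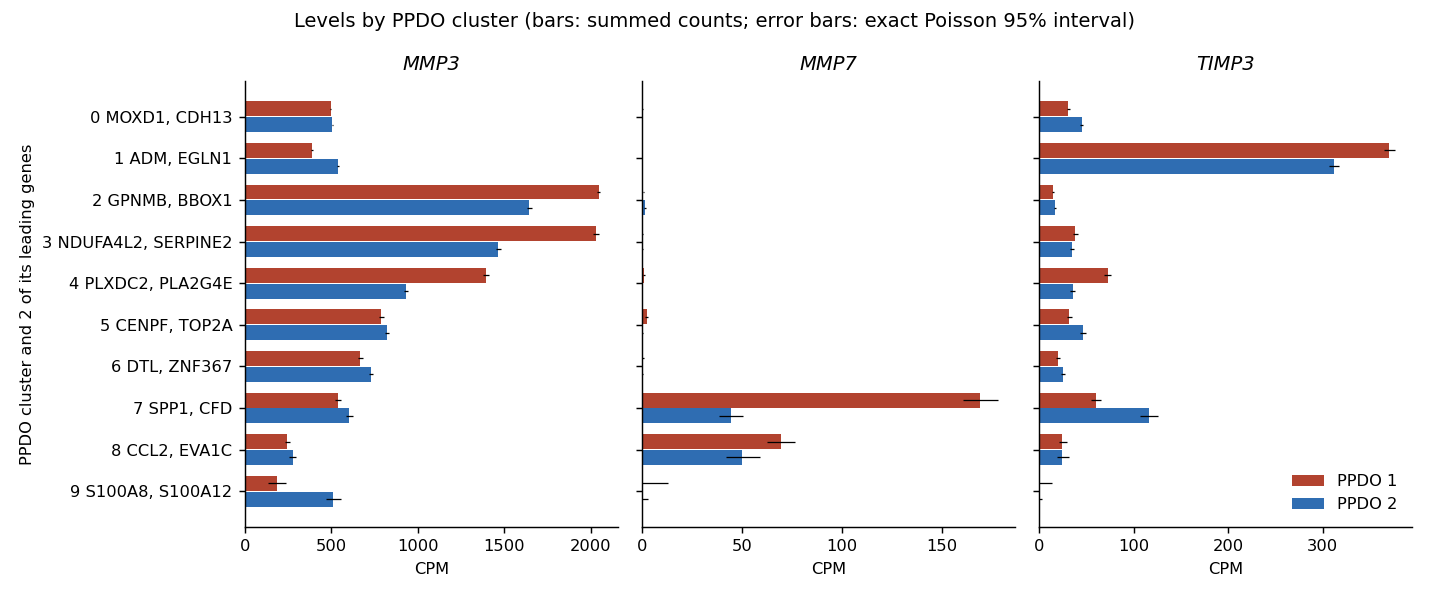
CPM of the 3 genes in the 10 PPDO clusters, from summed counts of each cluster in PPDO 1 (red) and PPDO 2 (blue), with exact Poisson 95% intervals for counting error as error bars. MMP3 is highest in clusters 2 and 3, MMP7 is highest in clusters 7 and 8, where single cells hold much of it, and TIMP3 is highest in cluster 1 in both libraries.

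Genes that ran most closely with each member across single PPDO cells were ranked among 10374 genes by the mean Pearson r of the 2 libraries. Nearest to MMP3 were S100A11 (0.54), ZDHHC18 (0.53), S100A2 (0.50), FGFBP1 (0.49) and KRT5 (0.48), which include a keratin of basal epithelial cells. Nearest to TIMP3 were EGLN1 (0.60), ERO1A (0.59), ADM (0.59), BNIP3 (0.56) and VEGFA (0.56). For MMP7 the values were lower, with GABRP (0.31), WFDC2 (0.25), GSTA1 (0.25), CFD (0.23) and TCN1 (0.22) first. All these values are descriptions over 8885 and 7337 cells that share a library.

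MMP3 and TIMP3 were found together in fewer organoid cells than their separate shares would give. Among cells thinned to 3000 UMIs in PPDO 1, 540 had both, where 938 would follow from the 2 shares. In PPDO 2, 559 had both, where 692 would follow. TIMP3 was found in 10.6% of MMP3-positive and 29.1% of MMP3-negative cells of PPDO 1, and in 13.3% and 20.7% of those of PPDO 2. The odds ratio of finding both was 0.29 in PPDO 1 (95% interval over cells 0.26 to 0.32) and 0.59 in PPDO 2 (0.52 to 0.66). Part of this lay between clusters: within clusters the odds ratio was 0.57 and 0.84. Pearson's r across cells was -0.36 over 8885 cells and -0.21 over 7337 cells.

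The total count of a cell moved with both genes in PPDO. Cells of each library were split into 4 equal bins by total UMIs. From the lowest to the highest bin, MMP3 went from 345 to 1368 CPM in PPDO 1 and from 497 to 1147 CPM in PPDO 2. TIMP3 went from 298 to 34.5 CPM in PPDO 1 and from 188 to 41.97 CPM in PPDO 2. MMP7 went from 2.10 to 11.7 CPM and from 0.193 to 2.43 CPM. Cluster 1, with the most TIMP3, had a median of 23678 UMIs per cell, and cluster 2, with the most MMP3, had 43615 UMIs. Within depth bins the odds ratio of MMP3 and TIMP3 was 0.40 and 0.71, and within bins and clusters together it was 0.64 and 0.87. All these values at 3000 UMIs were below 1, but without thinning the value within clusters was 0.70 in PPDO 1 and 1.08 in PPDO 2, so in PPDO 2 the direction inside clusters depended on depth.

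**Figure D3:**
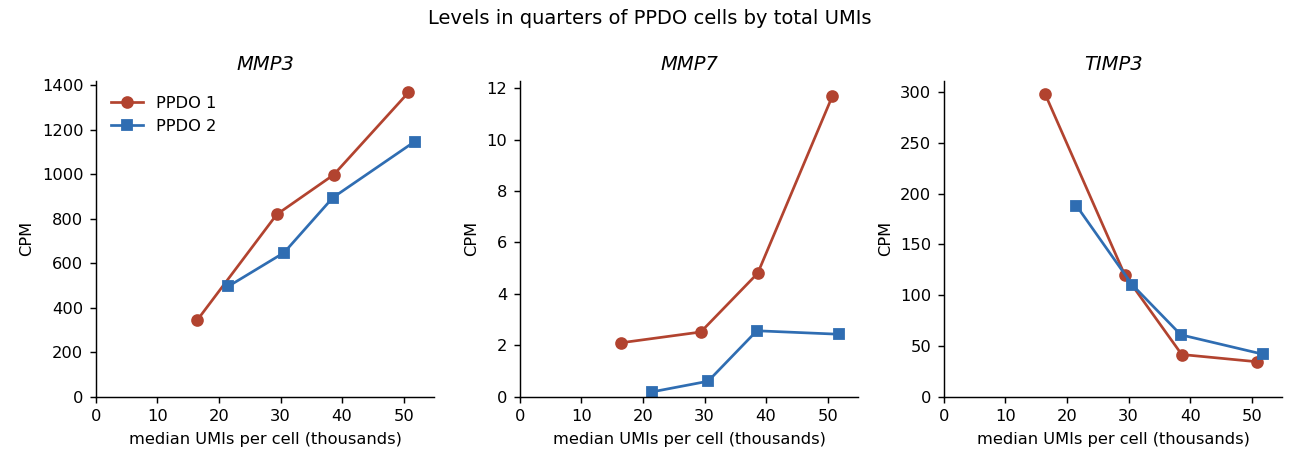
CPM of MMP3, MMP7 and TIMP3 in 4 equal bins of the PPDO cells ordered by total UMIs, against the median UMIs per cell of each bin. MMP3 climbs from 345 to 1368 CPM in PPDO 1 and from 497 to 1147 CPM in PPDO 2, and TIMP3 drops from 298 to 34.5 CPM and from 188 to 41.97 CPM.

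The pairs with MMP7 rested on few cells. At 3000 UMIs, 13 cells of PPDO 1 and 4 of PPDO 2 had MMP3 and MMP7, with odds ratios of 0.28 (0.15 to 0.53) and 0.39 (0.13 to 1.24). At 10000 UMIs these odds ratios were 0.35 (0.22 to 0.54) and 0.51 (0.24 to 1.06), and without thinning 1.05 (0.68 to 1.64) and 2.02 (0.77 to 5.29). MMP7 and TIMP3 were found together in 5 cells and 1 cell at 3000 UMIs, with odds ratios of 0.57 (0.24 to 1.39) and 0.66 (0.12 to 3.62). The intervals of these pairs are over cells that share a library, so they are a description. At 10000 UMIs they were 0.74 (0.45 to 1.22) and 2.28 (1.11 to 4.68). Without thinning, all 3 genes were found in 49 and 25 cells. In that count MMP3 alone was found in 51.9% and 49.0% of cells, MMP3 with TIMP3 in 30.9% and 35.9%, and TIMP3 alone in 11.3% and 7.54%.

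MMP7 and TIMP3 were both common in primary ductal-like cells. Their odds ratio at 3000 UMIs was above 1 in primary pancreas 1 (1.47, 1.21 to 1.77) and close to 1 in primary pancreas 2 (0.98, 0.74 to 1.31). Within the clusters of primary pancreas 1 it was 1.08 in cluster 0, 1.44 in cluster 5 and 1.02 in cluster 8. In primary pancreas 2 it was 0.99 in cluster 1 and 0.36 (0.098 to 1.32) in cluster 23, where 3 cells had both. Each of the intervals within clusters included 1, but all these intervals are over cells that share a library and are a description.

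**Figure D4:**
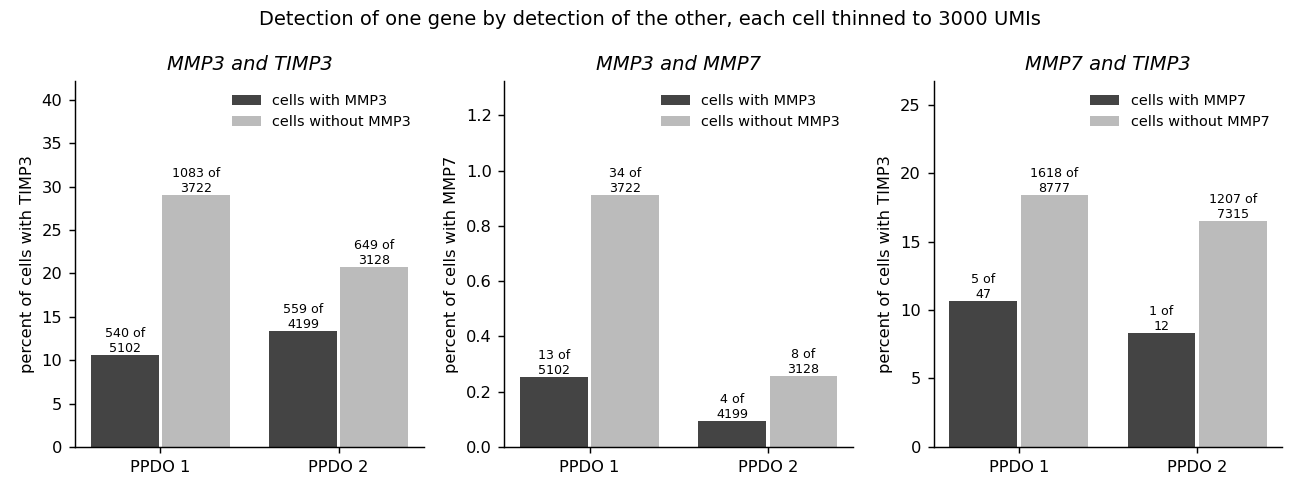
Percent of PPDO cells in which the second gene of a pair was found, among cells with (dark) and without (light) the first gene, after thinning each cell to 3000 UMIs, with cell counts above the bars. TIMP3 was found in 10.6% of MMP3-positive and 29.1% of MMP3-negative cells of PPDO 1, and the pairs with MMP7 rest on 13, 4, 5 and 1 cells.

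The other genes of the pathway were compared between PPDO and primary ductal-like cells to show the setting of the 3 members. UMIs were summed per library and tested with edgeR's quasi-likelihood test over 23543 genes, and adjusted p denotes the Benjamini-Hochberg value, called under 0.05. Fold changes of this fit carry TMM normalisation factors and CPM values do not. Of all genes tested, 43.7% were called, 22.9% higher and 20.9% lower in PPDO, and the median log2 fold change was 0.01. Without TMM normalisation factors the median was -0.45, with 3253 genes higher and 6955 lower in place of 5382 and 4915. Of the 94 measured genes of 6 lists 29 were higher, 23 were lower and 42 were not called, which is 55.3% called. The lists were chosen with earlier results of these data known, so the counts of list genes are a description. When every gene more than 2 times higher in some non-ductal primary class was dropped, 22 list genes were left and 11 were called, beside 5413 of the 10346 genes left in all. Without PPDO 1 or PPDO 2, 5012 and 4548 of all genes were called in place of 10297. Of the list genes, 26 and 25 were then higher but only 13 and 13 lower. The replicates are separate libraries of different animals or lines, and p-values rest on 2 libraries a group.

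All 6 measured inhibitors other than TIMP3 were called, 2 higher and 4 lower, beside 43.7% of all genes, with a median log2 fold change of -2.10. TIMP1, a secreted inhibitor of most matrix metalloproteinases, was at 435 and 481 CPM in PPDO and 14.4 and 18.6 CPM in ductal-like cells. It was higher by 5.27 ± 0.17 (log2, SE; adjusted p = 0.00034). TIMP4 was higher by 4.79 ± 0.39 (adjusted p = 0.0016), from 0.162 and 0.158 CPM in ductal-like cells to 3.87 and 2.75 CPM in PPDO. TIMP2 fell by 1.957 on the log2 scale (adjusted p = 0.016), but its call was lost without PPDO 1 (0.091) and without PPDO 2 (0.058). TFPI2, a Kunitz-type inhibitor of serine proteases, fell by 4.13 (adjusted p = 0.00051), and the membrane-anchored inhibitor RECK fell by 2.25 (adjusted p = 0.0050). The broad inhibitor A2M fell by 3.01 (adjusted p = 0.023), a call lost without PPDO 1 (0.11) or PPDO 2 (0.11). It fell by 1.88 without primary pancreas 1 and fell by 3.66 without primary pancreas 2.

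In PPDO, TIMP1 was not distributed like TIMP3. It was highest in cluster 3, with 781 and 724 CPM, and in cluster 1, where TIMP3 was highest, it had 214 and 398 CPM. Cluster 7 had 145 and 153 CPM. In the primary tissue TIMP1 was at 421 CPM in fibroblast-like cells of primary pancreas 1 and at 269 and 253 CPM in myeloid-like cells.

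Of the 17 other matrix metalloproteinases measured, 4 were higher, 3 were lower and 10 were not called, with a median log2 fold change of -0.16. This was 41.2% called, close to the share over all genes. MMP13 (collagenase-3) was higher by 3.84 ± 0.44 (adjusted p = 0.0036), from 0.254 and 0.552 CPM in ductal-like cells to 4.71 and 3.36 CPM. MMP12 was at 0.306 CPM in PPDO on average and had 1 UMI in ductal-like cells, a pooled ratio of 20.95 (3.71 to 832), and its call (adjusted p = 0.0094) was lost without PPDO 1 (0.059) or PPDO 2 (0.068). That UMI was in primary pancreas 1, and the fitted log2 fold change, 4.74, was 3.99 without primary pancreas 2. MMP8 had 0.0963 and 0.152 CPM in PPDO and no UMI in ductal-like cells, which makes it at least 2.80-fold higher against a floor of 3 UMIs over the group (adjusted p = 0.030, and 0.068 without primary pancreas 1). The transmembrane member MMP15 fell by 3.91 (adjusted p = 0.0050), from 69.0 and 45.3 CPM to 3.88 and 1.84 CPM, and it fell by 4.50 without PPDO 1. MMP16 fell by 4.02 (adjusted p = 0.0017) and MMP17 fell by 2.997 (adjusted p = 0.0061, and 0.059 without PPDO 2).

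The gelatinases and MMP14 did not pass the test. MMP2 had 0.0565 and 0.290 CPM in PPDO and 0.671 and 0.552 CPM in ductal-like cells (adjusted p = 0.26). MMP9 had 0.116 and 0.602 CPM in PPDO and 2 UMIs in ductal-like cells (adjusted p = 0.071). Its outcome depended on the setting, since it was called in 3 of the 7 alternatives in which it was tested. The log2 fold change of MMP9, 4.02, was 4.76 without PPDO 1. MMP14, a membrane enzyme that activates pro-MMP2, had 6.93 and 7.64 CPM in PPDO and 12.5 and 11.8 CPM in ductal-like cells (log2 fold change -0.29 ± 0.22, adjusted p = 0.33). MMP1 and MMP10 were not analysed here under these names.

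Of 12 ADAM and ADAMTS proteases listed as possible targets of TIMP3, 4 were higher, 3 were lower and 5 were not called, with a median of 0.64. This was 58.3% called, beside 43.7% of all genes. ADAM17, which sheds TNF and EGF receptor ligands from the cell surface, was at 46.6 and 44.3 CPM in PPDO and 25.6 and 32.5 CPM in ductal-like cells (1.11 ± 0.13, adjusted p = 0.0041). ADAM10 had 110 and 93.5 CPM in PPDO and 111 and 139 CPM in ductal-like cells (0.17 ± 0.13, adjusted p = 0.34), with a sign that turned without TMM factors. ADAMTS1 was at 22.7 and 50.4 CPM in PPDO and at 1.53 and 0.0788 CPM in ductal-like cells. It was higher by 5.79 ± 1.20 (adjusted p = 0.019), by 9.39 without primary pancreas 1 and by 4.90 without primary pancreas 2, and its call was lost without PPDO 2 (5.06, adjusted p = 0.077). ADAM15 was higher by 1.62 (adjusted p = 0.0053), and ADAM28 by 1.49 (adjusted p = 0.011, and 0.053 without PPDO 1). ADAM12 fell by 3.996 (adjusted p = 0.00096) and ADAMTS2 fell by 2.77 (adjusted p = 0.010, and 0.050 without PPDO 1). ADAMTS5, on 21 UMIs in ductal-like cells, fell by 1.962 (adjusted p = 0.019), a call lost without PPDO 1 (0.17), PPDO 2 (0.17) or primary pancreas 1 (0.079).

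Among 18 activators of pro-metalloproteinases, 9 were higher, 4 were lower and 5 were not called, with a median of 4.55. This was 72.2% called, beside 43.7% of all genes. KLK7, a kallikrein of shedding epidermis, was at 24.8 and 115 CPM in PPDO and had 1 UMI in ductal-like cells, a pooled ratio of 4602 (826 to 181772; adjusted p = 0.0042). Its fitted log2 fold change, 12.58, was 13.27 without PPDO 1 and 10.99 without PPDO 2. It was 11.32 without primary pancreas 1 and 16.84 without primary pancreas 2, which held the 1 UMI. KLK11 was at 0.914 CPM in PPDO 1 and 7.16 CPM in PPDO 2 and had no UMI in ductal-like cells, so over both PPDO libraries pooled it was at least 87.4-fold higher (adjusted p = 0.033). With PPDO 1 alone the bound was 20.9-fold and with PPDO 2 alone 164-fold, and its call was lost without primary pancreas 1 (0.083) or primary pancreas 2 (0.069). SERPINB2, an inhibitor of plasminogen activators, was at 325 and 365 CPM against 0.185 and 0.118 CPM (adjusted p = 0.00032). The list thus also holds brakes of activation. PLAT (tissue plasminogen activator) fell by 4.30 (adjusted p = 0.029), with ductal-like values of 134 and 21.0 CPM. It fell by 2.23 without primary pancreas 1 and fell by 5.14 without primary pancreas 2, with a call lost without PPDO 1 (0.12) or PPDO 2 (0.14). PLG fell by 2.51 on 17 ductal-like UMIs (adjusted p = 0.011), lost without PPDO 1 (0.13) or PPDO 2 (0.12), and the hepsin gene HPN fell by 1.86 (adjusted p = 0.0056).

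Of 21 substrates and matrix partners 6 were higher, 6 were lower and 9 were not called, with a median of 0.24. This was 57.1% called, beside 43.7% of all genes. The hemidesmosomal collagen COL17A1 was higher by 8.27 ± 0.22 (adjusted p = 0.00032), the IGF-binding protein IGFBP5 by 7.9996 ± 0.26 (adjusted p = 0.00034) and the syndecan SDC1 by 4.04 ± 0.25 (adjusted p = 0.00097). The basement membrane gene NID1 fell by 8.39 (adjusted p = 0.00045) and the VEGF receptor KDR, whose signal TIMP3 can block, fell by 7.49 (adjusted p = 0.0011). KDR is also an endothelial marker, among the leading 10 genes of endothelial-like cluster 4, and averaged 19.0 CPM in ductal-like cells. The part of free RNA or mixed cells in the ductal-like counts of NID1 and KDR was not tested. SPP1 (osteopontin), which both enzymes can cut, fell by 5.64 (adjusted p = 0.0020), from 1759 and 912 CPM to 20.2 and 20.1 CPM, and it fell by 4.97 without primary pancreas 1.

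Of 20 transcription factors known upstream of the 2 enzymes 4 were higher, 3 were lower and 13 were not called, with a median of 0.19. This was 35.0% called, beside 43.7% of all genes. ETV5 was higher by 5.997 ± 0.30 (adjusted p = 0.00063), LEF1, a nuclear partner of WNT signalling, by 4.52 ± 0.28 (adjusted p = 0.00092) and RUNX2 by 4.17 ± 0.28 (adjusted p = 0.0011). ELF3 fell by 2.93 (adjusted p = 0.037), ETS2 fell by 1.54 (adjusted p = 0.021) and TCF7L2 fell by 0.67 (adjusted p = 0.027). These 3 calls were lost without PPDO 1 or PPDO 2. The call of TCF7L2 was also lost when genes more than 2 times higher in another primary class were dropped. ELF3 fell by 1.43 without primary pancreas 1 and fell by 3.68 without primary pancreas 2.

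**Figure D5:**
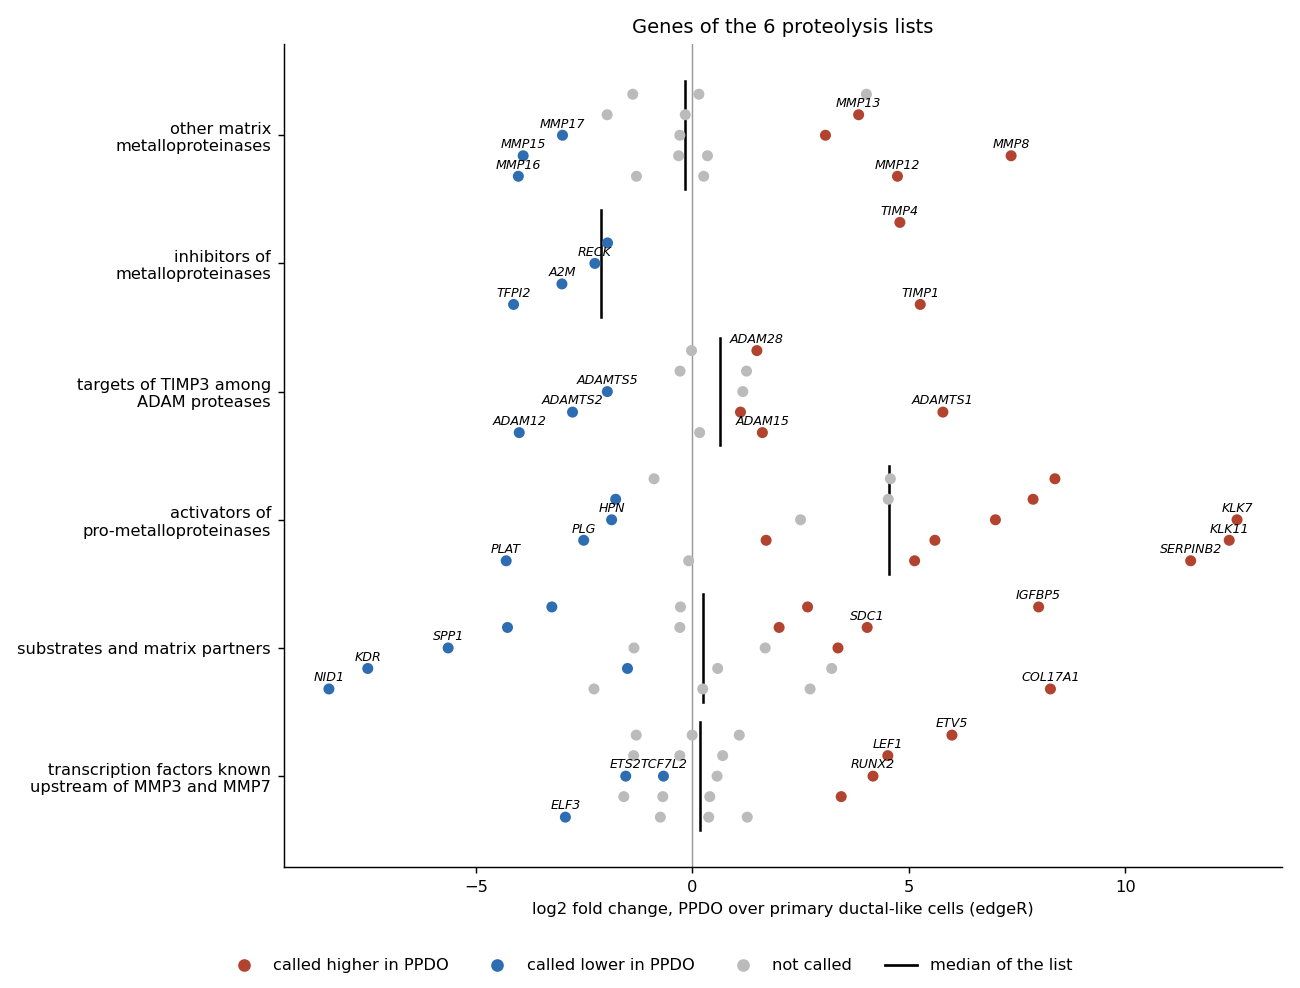
Log2 fold change of PPDO over primary ductal-like cells (edgeR) for the 94 measured genes of 6 lists, 1 point a gene, with genes called higher in red, called lower in blue, not called in grey and the median of each list as a black line. The medians run from -2.10 for the inhibitors to 4.55 for the activators, and both directions occur in every list.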

How the data were processed

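UMI counts of 4 pig libraries were processed. The authors prepared 10x Chromium 3' libraries and counted molecules with Cell Ranger (7.1.0 in the file headers) against an in-house pig annotation, whose feature names mark extensions of 3' ends. The submitters' processing notes name the builds Sscrofa11.1 and GRCh38, the latter a human genome. The deposited counts are raw and without the removal of free RNA (SoupX) that the study applied later. The deposited tables of barcode and feature names are of a unit recorded as other. Groups and replicate numbers came from the sample titles, and these numbers were assumed to be the sample numbers of the methods. The 3 genes and the 6 lists were chosen with earlier results of these data known.

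Each library had 56060 features, which were summed to 30282 gene identifiers. Cells were kept at limits after the methods: at most 3% mitochondrial UMIs and 1000 to 9000 features in PPDO (a lower limit of 600 for 1 line was an alternative), and under 8% and under 9000 features in primary pancreas, with over 400 features in library 1 and over 800 features and 3000 UMIs in library 2. Scrublet scores over 0.25 and 0.15 removed 84 and 141 primary cells. In PPDO its automatic threshold marked 0 cells, so no doublets were removed there. Clustering (Scanpy 1.11.5, 2000 variable genes without the 3 members, 20 components, 15 neighbours, Leiden resolution 0.5) was run on each group. Genes were scaled within each library in PPDO, and no adjustment for library was made in primary pancreas. Primary clusters were named from marker lists where at least 3 markers were found in 10% of cells at 2 times the level of the other clusters. Clusters of low depth with no marker of their best list among their 10 leading genes were left unnamed, although they had 3 or more such markers. These limits were set after the clusters were seen. The unnamed clusters hold 269 and 363 cells.

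CPM is UMIs of a gene per 1000000 UMIs of a group of cells. Shares were computed with each cell thinned to 3000 UMIs and shallower cells left out, with exact Clopper-Pearson intervals. Odds ratios had 0.5 added to each count. Intervals and floors (3 UMIs) cover counting error only. Sums per library were tested with edgeR (quasi-likelihood, TMM factors, filterByExpr), and the script was tested on simulated data. Kept cells held 300990260, 262372786, 76005758 and 118680820 UMIs. Named were the 3 members, the 3 most changed called genes per list and direction, TIMP1, TIMP2, MMP1, MMP2, MMP9, MMP10, MMP14, ADAM10 and ADAM17, and the 5 genes nearest each member. Some genes that this rule or the marker lists gave are not reported here. MMP13 by cluster, TIMP1 by class and SYN3 were added after their values were seen. List genes without a measured symbol were MMP1, MMP10, MMP21, MMP26, PZP, SDC4, IGFBP3, JUN and JUND. Alternatives were DESeq2, no TMM factors, no filter, a replicate block, thinned sums, other resolutions, depths, doublet and cell limits, and leaving out each library. Human organoid and bulk data were not analysed here.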

Additional observations from a re-analysis of the deposited data

How the results depend on the processing

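The directions of the differences of MMP3, MMP7 and TIMP3 between PPDO and ductal-like cells held under all settings tried (cell and doublet limits, cluster resolution, extensions and each library left out). These ratios are of CPM, and no other normalisation was tried for them. TMM factors raised the log2 fold changes of the edgeR comparison by a median of 0.46, beside -0.71 for TIMP3 without primary pancreas 1. The log2 ratio of MMP3, 12.41, moved by more than the spread between libraries only without 3' extensions (13.51). Leaving out 1 library gave 11.98 to 13.01 for MMP3, -8.81 to -6.89 for MMP7 and -2.50 to -0.71 for TIMP3. In the edgeR comparison, leaving out 1 library gave 4548 to 10724 called genes against 10297, the lowest without PPDO 2 and 5012 without PPDO 1, and 38 to 62 list genes against 52. Dropping every gene more than 2 times higher in some non-ductal primary class left 5413 genes of 10346 and 11 list genes of 22 called. The replicate block gave 8219 called genes and 50 list genes, with MMP8 and ADAMTS5 among the named genes not called under it; same-numbered libraries did not deviate together (r = -0.0055 over 23543 genes, 2 pairs), so the numbers do not pair them. DESeq2 called 11228 of 24777 genes and 61 list genes. Shares of cells depended on depth: without thinning they were 84.9%, 1.26% and 43.3% for MMP3, MMP7 and TIMP3, and at 10000 UMIs 75.1%, 0.681% and 30.3%. The odds ratio of MMP7 and TIMP3, 0.61, was 1.02 without thinning and 1.30 at 10000 UMIs, and the cause was not tested. The odds ratio within clusters was added after seeing the data. Of the named classes, ductal-like and mural-like cells had the highest MMP7 and TIMP3 at all resolutions and with doublets kept. The MMP3 level of ductal-like cells rests on 11 UMIs, and the MMP7 pairs in PPDO rest on few cells.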
